A study of Homo sapiens with 12 samples.

Results

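The baseline transcriptome of the Ewing sarcoma line TC71 was read from the 4 scramble arrays of a series of 12 arrays. The series measured TC71 cells at 48 h in 3 groups of 4 arrays, which expressed a scrambled control, a miR-130b mimic (a stand-in for that microRNA) or an anti-miR against it. Only the cells with the scrambled control are described, and they were chosen by that label. They are therefore TC71 cells carrying a control oligonucleotide or construct, whose type the labels do not give, and not untouched cells. TC71 is an established cell line, so all 4 arrays read RNA of the same line, and the labels do not say whether they come from separate cultures. Every spread given is then one between arrays, which may be technical, and no groups were tested against each other. Genes were ranked by their mean raw signal over the 4 arrays. A gene was called detected when at least 1 of its probes had a detection p under 0.05 on all 4 arrays, that is, a signal above nearly all negative control beads.

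Ewing sarcoma is a tumour of bone and soft tissue driven by a fusion of the RNA-binding protein gene EWSR1 with a gene of the ETS transcription factor family, most often FLI1. The fusion protein keeps the DNA-binding domain of FLI1, binds GGAA motifs and activates many genes at repeats of that motif, while other genes are repressed. The cell of origin is debated, with mesenchymal stem cells and neural crest cells as candidates, and the tumours show weak neural features. High surface CD99, nuclear NKX2-2 and the nuclear receptor gene NR0B1 serve as markers.

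The arrays held 47322 probes, of which 30113 were named to a single gene, and these covered 20046 genes. Between 19008 and 19937 probes were detected per array, the lowest detected signal was 94.7 to 97.9 and the median signal 85.5 to 88.8. In all, 10426 genes (52.0%) were detected on all 4 arrays, 7550 (37.7%) on none, and 2070 on 1 to 3 arrays. The median mean signal was 389 over detected genes and 73.5 over genes detected on no array. Signals over 1000 were reached by 2553 detected genes and signals over 10000 by 178. Signals also depend on the probe: among 2621 genes with several detected probes, the brightest exceeded the dimmest by a median ratio of 2.08, and by over 10 in 212 genes. Each gene is given by its brightest probe, and in 2336 of 6691 genes with several probes some probes were detected and others not. Such undetected probes are given below for some genes only. CDKN1A, PSAT1, CD276, ERBB2 and ATF3 are among the genes for which they are not given. Ranks therefore describe signal, not copies of RNA. A missing signal is not a missing transcript either. Both probes of the ribosomal protein gene RPL10 (brightest mean 73.9) and the single probe of PDIA3 (66.4), a disulphide isomerase of the endoplasmic reticulum, were detected on no array. Of genes with 1 probe 46.6% were detected, and of genes with several probes 62.7%.

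**Figure D1:**
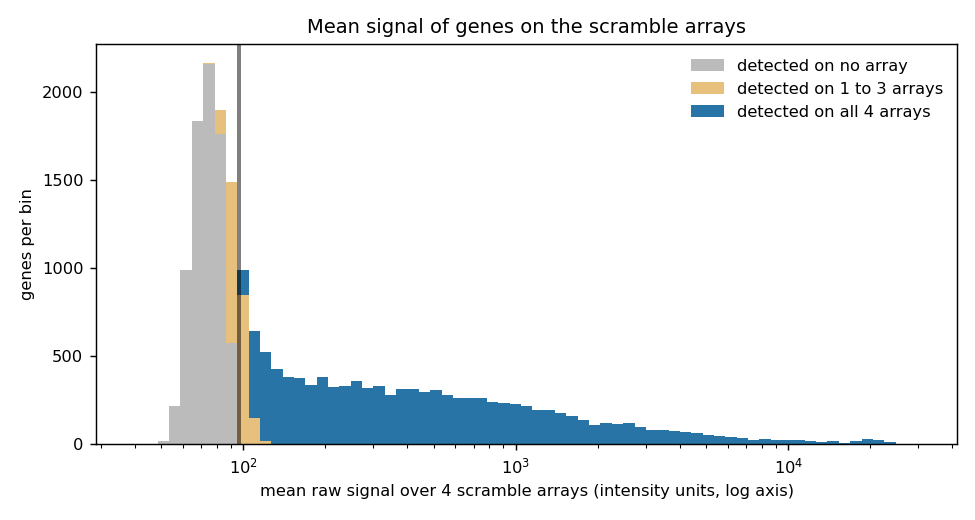
Histogram of the mean raw signal over the 4 scramble arrays for 20046 genes (x axis, intensity units on a log axis; y axis, genes per bin), stacked and coloured by the number of arrays on which the gene was detected; the dark band marks the lowest detected signal of the 4 arrays (94.7 to 97.9). Genes detected on no array form the peak below the band, and detected genes form a long tail up to 24261.

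Both Ewing sarcoma markers on the array were detected. Neither is specific to this tumour, and no other line was measured for comparison. CD99, the surface glycoprotein used to diagnose the tumour, gave a raw signal of 3865, 3164, 3669 and 3856 on scramble arrays 1, 2, 3 and 4. The homeobox transcription factor gene NKX2-2 gave 2307, 1655, 1546 and 1617. Both were detected on all 4 arrays, CD99 at rank 647 and NKX2-2 at rank 1434 of 20046. Scramble 1 held the highest raw value of both, as it did for 77.7% of all detected genes. For NKX2-2 the other 3 arrays lay close together. After quantile normalization, which gives all arrays the same distribution, scramble 1 was the lowest array for CD99 and the highest for NKX2-2. The third marker, NR0B1, was not analysed here.

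Both partner genes of the common fusion were detected. EWSR1 gave 2594, 2142, 2005 and 2158, and its other probes, at means of 1990.5 and 478, were detected as well. FLI1, whose only probe reads 419.5, 403, 395 and 348, stood at rank 5189. Whether these probes read the fusion transcript, the normal genes or both was not tested. ERG, the next most common ETS partner, lay at background on all 3 of its probes (brightest 82.8), as did ETV1 (66.8), and ETV4 (104) was detected on 3 arrays. FEV, a further ETS partner gene, was detected at 340.1 ± 26.8 (mean ± SD, n = 4 arrays, as in all values below written in this form). Of 15 measured fusion partner and ETS genes 10 were detected, beside 52.0% of all genes. They include ELK1 (1868 ± 270.4), a serum response partner, TAF15 (1532 ± 282), an RNA-binding relative of EWSR1, ETV5 (971 ± 267), ELF1 (767 ± 155) and ETS1 (620.2 ± 162). Among ETS factors of blood and epithelium, ELF3 was detected at 142 ± 9.85, and SPI1 (82.9) and SPDEF (67.8) on no array.

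**Figure D2:**
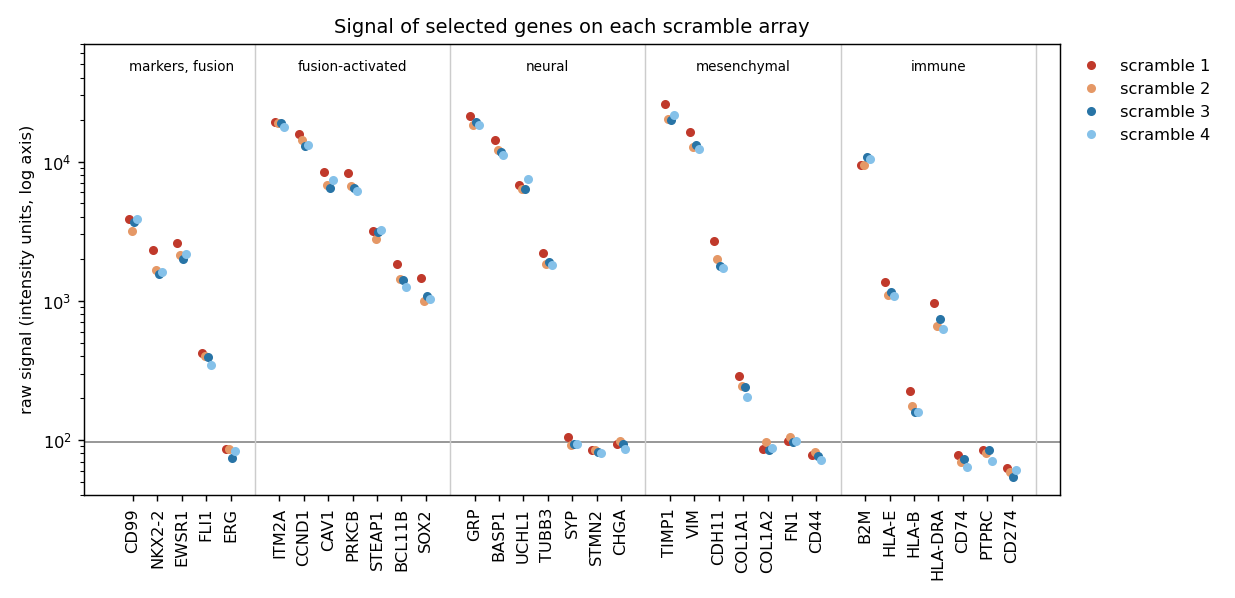
Raw signal of selected genes on each of the 4 scramble arrays (y axis, intensity units on a log axis; 1 point per array, coloured by array), grouped as marker and fusion genes, fusion-activated, neural, mesenchymal and immune genes; the narrow horizontal band spans the lowest detected signals of the 4 arrays (94.7 to 97.9). CD99 and NKX2-2 lie far above the band on all 4 arrays, and ERG, STMN2, CD44, CD74, PTPRC and CD274 lie below it on all 4.

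Genes reported as activated by the fusion were detected at a high share. The list was chosen with earlier results of these data known, so this share is a description only. Of 48 measured members 41 were detected (85.4%, beside 52.0% of all genes), with a median mean signal of 933 beside 111 over all genes, and 8 stood in the top 1000 ranks, which hold 4.99% of all genes. The brightest was ITM2A, a small membrane protein gene, at 19363, 19087, 18939 and 17766. The cyclin D1 gene CCND1, which drives entry into S phase, gave 15699, 14269.6, 13030.4 and 13173. CAV1, which encodes the caveolar coat protein caveolin, gave 8381, 6772, 6453 and 7342. PRKCB, the gene of protein kinase C beta, gave 8285, 6659, 6466 and 6131. For these 4 genes scramble 1 was the highest array on raw signal, as for 77.7% of all detected genes. Their CVs (SD over mean) were 3.75% to 13.9%. After quantile normalization scramble 1 was the highest array only for PRKCB, and it was the lowest for ITM2A. KDSR, an enzyme of sphingolipid synthesis, spread more widely at 6131 ± 1455 (CV 23.7%). It was followed by FCGRT (4419 ± 738), the neonatal Fc receptor gene, and STEAP1 (3077 ± 214), a surface metalloreductase. ITM2A rests on 1 very bright probe, since its second probe read 559.

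Transcription factor genes of the list were detected too. BCL11B, a zinc finger repressor known from T cells and neurons, gave 1484 ± 243, but its second probe read 67.5 and was detected on no array. SOX2, a stem cell factor, gave 1460.3, 990.1, 1081 and 1028, and POU4F1, a factor of sensory neurons, 697 ± 95.3. PAX7, a factor of neural crest and muscle progenitors, gave 632 ± 94.9, and HOXD13 633 ± 19.4. The second PAX7 probe read 99.6 and was detected on 3 arrays. EZH2, the polycomb methyltransferase gene, was detected at 452 ± 37.2. The hedgehog effector GLI1 (148 ± 25.5), the telomerase gene TERT (118 ± 8.05) and the lipase gene LIPI (205 ± 15.1) were detected at low signals. Among the 7 members not called detected, CCK (75.5), NPY1R (80.8), CDC42EP3 (81.1) and DAPL1 (64.9) were detected on no array. IGF1 (91.3), a growth factor gene that the fusion is reported to induce in stem cells, was detected on 1 array, and UPP1 (90.3) and SPON1 (95.3) on 2 arrays each.

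The fusion is known to act at GGAA repeats, so the promoter windows of both fusion lists were read for a tandem pair, GGAAGGAA on either strand. The windows run from 250 bases before to 50 bases after each gene's start (RefSeq, GRCh38.p14). Of 38 fusion-activated genes with a window 1 held the pair (2.63%), CAV1, and of 19 fusion-repressed genes 1 held it (5.26%), TNC. The pair was found in 3.58% of all 27305 windows and in 3.21% of the windows of 8463 detected genes. The windows of CAV1 (chr7:116524759-116525058, plus strand) and TNC (chr9:115118108-115118407, minus strand) are shown because they are the only matches of either list, written along the strand of the gene. Capitals mark the pair, which is read here from the opposite strand as TTCCTTCC.
CAV1: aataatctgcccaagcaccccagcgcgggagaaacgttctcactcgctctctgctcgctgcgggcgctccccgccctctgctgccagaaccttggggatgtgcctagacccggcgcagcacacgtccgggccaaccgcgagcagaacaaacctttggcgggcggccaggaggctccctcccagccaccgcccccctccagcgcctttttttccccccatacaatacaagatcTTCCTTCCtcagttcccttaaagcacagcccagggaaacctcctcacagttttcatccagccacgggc
TNC: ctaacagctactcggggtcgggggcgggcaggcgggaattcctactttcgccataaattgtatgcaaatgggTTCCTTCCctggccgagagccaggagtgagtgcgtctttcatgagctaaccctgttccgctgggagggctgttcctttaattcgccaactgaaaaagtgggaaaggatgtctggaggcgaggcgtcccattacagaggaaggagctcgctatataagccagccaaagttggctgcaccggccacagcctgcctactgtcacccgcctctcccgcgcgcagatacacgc
The pair starts at position 233 of the CAV1 window and position 73 of the TNC window. The match is one of letters, and known fusion-bound repeats far from gene starts lie outside such windows.

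Genes that the fusion is known to repress were also partly detected. Of 25 measured members 16 were detected (64.0%, beside 52.0% of all genes), with a median mean signal of 147, and 0 stood in the top 1000 ranks. CDH11, a cadherin gene of mesenchymal cells, was brightest at 2672, 1984, 1780.3 and 1717, followed by the cell cycle inhibitor gene CDKN1A at 1291, 1022, 779 and 892. COL3A1 (813 ± 116), the growth factor binding protein gene IGFBP5 (566 ± 75.1), ALCAM (512 ± 128) and the matrix gene TNC (425 ± 100.3) came next. Scramble 1 was the highest array for CDH11 and CDKN1A on raw signal, as for 77.7% of all detected genes. The TGF-beta receptor gene TGFBR2, a classical repressed gene, still gave 408, 364, 349 and 300.3 and was detected throughout. FOXO1 (305 ± 18.9) and LOX (120.3 ± 7.17), a collagen cross-linking enzyme, were detected as well. Repressed genes at background on all 4 arrays were CD44 (77.2, 3 probes), NT5E (80.2), ICAM1 (72.8), IL6 (86.5) and THBS1 (58.7). IGFBP3 (97.3), another classical repressed gene, was detected on 2 arrays, DKK1 (107) on 3 and COL1A2 (89) on 1.

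Neural features were partial. Of 35 measured genes of neuronal structure and secretion 16 were detected (45.7%, not far from the 52.0% of all genes), and 4 of these stood in the top 1000 ranks. GRP, which encodes gastrin-releasing peptide, a neuropeptide, gave 21399, 18199, 19213 and 18392, and its second probe read 12520.3. BASP1, a protein of the growth cone membrane, gave 14408, 12053, 11776 and 11223. UCHL1, a neuronal deubiquitinase, gave 6832, 6322, 6343 and 7469. On raw signal scramble 1 was highest for GRP and BASP1, as for 77.7% of all detected genes, and scramble 4 for UCHL1. MAPT, the tau gene, followed at 4525 ± 783, then the heavy neurofilament gene NEFH at 2297 ± 110.0 and the neuronal tubulin gene TUBB3 at 1942 ± 191. The second MAPT probe read 508 and was detected, and its others, at 89.3 and 84.8, were detected on no array. The medium and light neurofilament genes NEFM (256 ± 11) and NEFL (244 ± 14.5), the enolase ENO2 (889.7 ± 73.9) and the secretogranin SCG2 (652 ± 118) were detected. So were the vesicle calcium sensor SYT1 (836 ± 114) and the synaptic vesicle gene SYN1 (299 ± 48.3). The other probes of SYT1 (66.5) and SYN1 (79.2 and 55.6) were detected on no array.

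Of the neuronal list, 12 genes were detected on no array and 7 on 1 to 3 arrays. Those on no array include the microtubule regulator STMN2 (84.8, 84.2, 82.2 and 80.2), the synaptic SNARE gene SNAP25 (84.1), L1CAM (80.8) and CHGB (67.8). The noradrenaline genes TH (75.8) and DBH (67) were at background too. Chromogranin A (CHGA, 92.5) and synaptophysin (SYP, 96.2) were each detected on 1 array and DCX (93.6), a gene of migrating neurons, on 2 arrays. Of 7 glial genes 1 was detected (beside 52.0% of all genes), the myelin gene MBP (108 ± 6.63), close to the detection limit. The other MBP probes, at 75.1 and 62.7, were detected on no array. GFAP (85.8) and S100B (85.7) were detected on no array.

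Of 23 neural crest and progenitor regulators 15 were detected (65.2%, beside 52.0% of all genes). ZIC2, a zinc finger factor of the neural plate, gave 2694, 1954, 2150.3 and 2012, and the homeobox gene MSX1 gave 2771, 2170.3, 1792 and 1697. Scramble 1 was the highest array for both on raw signal, as for 77.7% of all detected genes. SOX2, TFAP2A (1119 ± 185), TWIST1 (1098 ± 54.1) and ISL1 (1041 ± 179) also lay over 1000. SNAI2 (285 ± 44), FOXD3 (135 ± 13.9) and the nerve growth factor receptor gene NGFR (128 ± 12.5) were detected at low signals. SOX9 (81.7), SOX10 (55.4), which marks migrating crest and glia, ZIC1 (65.7) and the intermediate filament gene NES (85.6) were detected on no array.

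Mesenchymal genes were mixed. Of 39 measured mesenchymal and matrix genes 25 were detected (64.1%, beside 52.0%), with a median mean signal of 182. TIMP1, an inhibitor of matrix proteases, gave 25761, 20304, 19975 and 21666, rank 13 of all genes. VIM, the mesenchymal intermediate filament gene vimentin, gave 16253, 12802, 13152 and 12325. Scramble 1 was highest for both on raw signal, as for 77.7% of all detected genes. The next genes followed at far lower signals. COL5A2 (2304 ± 507), CDH11, the smooth muscle actin gene ACTA2 (1198 ± 403) and TWIST1 were the next brightest, and ACTA2 had a CV of 33.6%. The chains of type I collagen, which osteoblasts and fibroblasts secrete in bulk, were dim: COL1A1 gave 288, 243, 238 and 203 and COL1A2 was detected on 1 array. Fibronectin (FN1) gave 98.1, 106, 96.4 and 99, barely above the detection limit on all 4 arrays. POSTN (84.9), MMP2 (75.8), MMP14 (90.3), CDH2 (72.1), SNAI1 (63.3) and ZEB1 (69.2) were detected on no array, while ZEB2 (239 ± 11.6) was detected.

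Of 12 surface genes of mesenchymal stem cells 6 were detected, a share close to the 52.0% of all genes. The integrin gene ITGB1 (4159.6 ± 733), PDGFRB (1219.6 ± 235), ITGA5 (774 ± 151), ALCAM, endoglin (ENG, 401 ± 34.2) and THY1 (167 ± 16.7) were detected. NT5E, CD44, PDGFRA (72.5), MCAM (68.9), CSPG4 (65.1) and LEPR (87) were at background on all 4 arrays. Genes of the lineages such cells can form were mostly at background: of 24 muscle, bone, cartilage and fat genes 3 were detected (12.5%, beside 52.0% of all genes) and 18 were detected on no array. The 3 were tissue-nonspecific alkaline phosphatase (ALPL, 1062, 992, 928 and 949), the adipocyte and myeloid factor CEBPA (306 ± 21.5) and osteocalcin (BGLAP, 188 ± 13.7). MYOD1 (87.5), MYOG (73.7), DES (76.1), SP7 (84.7), SPP1 (74.6), ACAN (67.2), PPARG (76.5) and ADIPOQ (73.2) were detected on no array, and RUNX2 (89.5), the early bone factor, on 1.

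HOX genes, homeobox factors that encode position along the body axis, were measured for 29 of 39 listed members. Of these 20 were detected (69.0%, beside 52.0% of all genes) and 6 were detected on no array. In the HOXA cluster only HOXA2 (98, detected on 2 arrays) was measured, and the other 10 HOXA genes were not analysed here. In HOXB 7 of 10 genes were detected. HOXB7 gave 1556, 1462, 1434 and 1365 and HOXB5 1909, 1204, 1349 and 1253, the latter with scramble 1 far above the other 3. HOXB8 (563 ± 96.2), HOXB2 (288 ± 41.8), HOXB13 (249 ± 8.53), HOXB6 (207 ± 18.9) and HOXB4 (149 ± 2.21) were dimmer. HOXB3 (90) was detected on 1 array and HOXB1 (80.5) and HOXB9 (75.2) on none.

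In HOXC 6 of 9 genes were detected (66.7%, beside 52.0% of all genes). HOXC6 gave 1869, 1655, 1635 and 1416, the highest mean signal of the measured HOX genes, on 1 of its 4 probes. Its other probes read 104, 83.6 and 77.2, and none of them was detected on all 4 arrays. HOXC8 (633 ± 101), HOXC13 (491 ± 71.6), HOXC9 (227 ± 19.9), HOXC4 (174 ± 20.3) and HOXC10 (111 ± 12.2) followed, HOXC11 (86.6) was detected on 2 arrays, and HOXC5 (84.1) and HOXC12 (80) on none. In HOXD 7 of 9 genes were detected (77.8%, beside 52.0% of all genes). The posterior genes, which pattern the distal limb, led the cluster: HOXD10 gave 1295, 1050.3, 1076 and 1013, HOXD11 1087, 844, 829 and 830.5 and HOXD13 639, 614, 620.5 and 657. HOXD13 had the tightest spread of the 3 (CV 3.07%). HOXD3 (298 ± 32.9), HOXD8 (243 ± 21.9), HOXD9 (196 ± 26.2) and HOXD4 (155 ± 21) lay lower, and HOXD1 (81.4) and HOXD12 (66.4), which lies between HOXD11 and HOXD13 in the cluster, were detected on no array. All 8 measured HOX cofactor genes were detected, from PBX3 (546 ± 92.9), PBX2 (429 ± 44.5), MEIS2 (356 ± 25.8) and MEIS1 (323 ± 25.4) through PBX4 (247 ± 16.9), PKNOX2 (239 ± 11.1) and PKNOX1 (235 ± 23.4) to MEIS3 (108 ± 6.81).

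**Figure D3:**
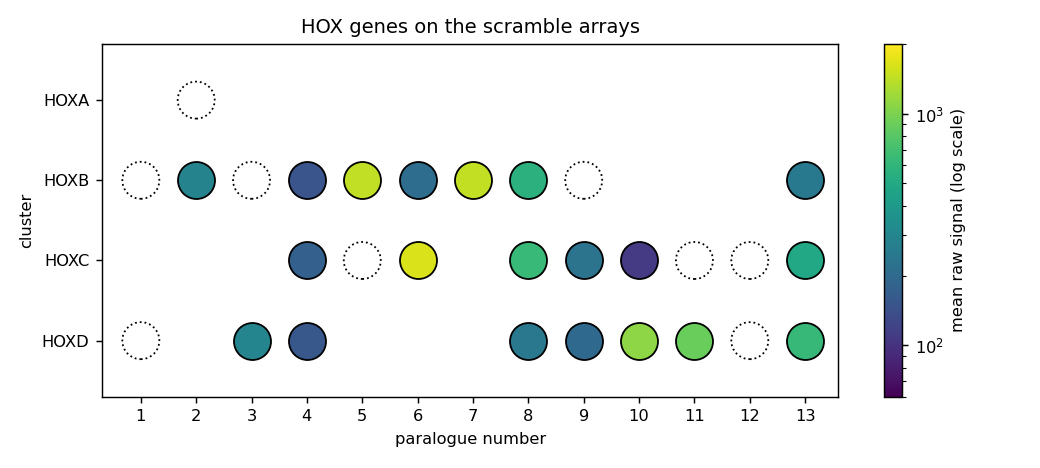
HOX genes by cluster (rows) and paralogue number (columns), each detected gene as a circle coloured by its mean raw signal over the 4 scramble arrays (log colour scale); dotted open circles mark measured genes not detected on all 4 arrays, and positions with no circle hold no gene or a gene not analysed here. HOXB5, HOXB7, HOXC6 and HOXD10 hold the highest signals, each over 1000.

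Antigen presentation through MHC class I was uneven. Of 17 measured genes 12 were detected (70.6%, beside 52.0% of all genes). The light chain gene B2M, shared by all class I molecules, gave 9465, 9439.5, 10808 and 10451. The heavy chain gene HLA-E gave 1177 ± 133, whereas HLA-B gave 225, 176, 158 and 160.1 and HLA-C 116, 111, 106 and 108, the last close to the detection limit. Scramble 1 was highest for HLA-B on raw signal, as for 77.7% of all detected genes. Class I genes are close in sequence, and whether these probes tell them apart was not tested. The aminopeptidase ERAP2 (8326 ± 1171), the immunoproteasome subunit PSMB10 (1642 ± 70.8), the chaperone CALR (1462 ± 162), TAPBP (579.6 ± 67.3) and HLA-F (448 ± 29.7) were detected. ERAP2 rests on 1 probe, since its other read 94 and was detected on no array. The peptide transporter TAP1 gave 292 ± 51.4, TAP2 (98.6) was detected on 3 arrays, and the immunoproteasome genes PSMB8 (74) and PSMB9 (76.1) and the class I regulator NLRC5 (66.5) on none.

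Class II genes, normally restricted to antigen-presenting cells, were detected for 3 of 10 members, beside 52.0% of all genes. HLA-DRA gave 968, 664, 744 and 627, with its second probe at 97.6 on 3 of 4 arrays, HLA-DMB 313 ± 55.6 and HLA-DMA 244 ± 24.7. The invariant chain CD74 (77.6, 68.9, 73.3 and 63.5) and the class II master regulator CIITA (69.7) were detected on no array.

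Blood cell markers were largely at background: 4 of 24 were detected (16.7%, beside 52.0% of all genes) and 15 on no array. PTPRC, which encodes the leukocyte antigen CD45, gave 84, 81, 85.2 and 70.6. CD3E (68.2), CD4 (67.2), CD8A (68), NKG7 (65.4) and TYROBP (66.9) were at background on all 4 arrays as well. The 4 detected were the lysosomal gene CD68 (522 ± 111), CD79A (174 ± 18.4, with its other probes at background), CD3D (108 ± 10.2) and CD79B, whose probe detected on all 4 arrays had a mean of 106. With a detection p under 0.01 the count was 2, and with detection on at least 3 arrays 8.

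Of 20 immune ligand and checkpoint genes 8 were detected, beside 52.0% of all genes. They were MICB (578 ± 62.7) and MICA (252 ± 32.7), ligands of the NK cell receptor NKG2D, CD276 (517 ± 47.6), NECTIN2 (377 ± 16.3), CD58 (336 ± 16.1), PVR (239 ± 18.6), the phagocytosis inhibitor CD47 (234 ± 23.4) and ULBP2 (223 ± 18). The PD-1 ligand genes CD274 (62.7, 58.7, 54.6 and 61.2) and PDCD1LG2 (54), and FAS (76.5), CD80 (75) and CD40 (88.5), were detected on no array.

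Of 28 interferon-stimulated genes 19 were detected (67.9%, beside 52.0% of all genes). The ubiquitin-like modifier gene ISG15 gave 8468, 7251, 7109 and 8690.4, and IFI6 gave 5652, 4329, 2572 and 3106. IFI6 spread widely, with the highest signal in scramble 1 and the lowest in scramble 3 (CV 35%). The membrane restriction genes IFITM2 (3505 ± 309), IFITM3 (2527 ± 283) and IFITM1 (1652 ± 138) and the RNA-binding effector IFIT1 (1520.1 ± 153) followed. The dynamin-like antiviral genes MX1 (71.4) and MX2 (87.8), OAS2 (77.5) and the guanylate-binding genes GBP1 (84.3) and GBP2 (84) were at background throughout.

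Of 26 cytokine and chemokine genes 6 were detected (23.1%, beside 52.0% of all genes), and 3 of those stood in the top 1000 ranks, which hold 4.99% of all genes. MIF, a cytokine that many cell types make constitutively, gave 19723, 18050.5, 17254 and 16928. IL18, which encodes an inflammasome-processed cytokine, gave 11856, 9496, 8082 and 7688. IL10, an anti-inflammatory cytokine gene of immune cells, gave 3994, 3349, 3094 and 2640.2, but its second probe read 71.9 and was detected on no array. Scramble 1 was highest and scramble 4 lowest for IL18 and IL10, and scramble 1 was highest for 77.7% of all detected genes on raw signal. CXCL10 (184 ± 30.9), CCL5 (177 ± 22.5) and CXCL8 (117 ± 10.5) were detected at low signals, and IL6, TNF (86.3), IL1B (72.2), CCL2 (69.2), CXCL12 (87.7), TGFB1 (77.3) and CXCR4 (68.4) on no array.

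Measured genes of central carbon metabolism were nearly all detected, beside 52.0% of all genes. All 18 measured genes of glucose transport and glycolysis were detected, with a median mean signal of 2868 beside 111 over all genes, and 10 stood in the top 1000 ranks. The enolase gene ENO1 gave 23777, 22649, 21367 and 21314. Lactate dehydrogenase A, which makes lactate from pyruvate, gave 16104, 15792, 19635 and 16518 (LDHA), and GAPDH gave 14504, 15299, 17197 and 16008. LDHB (10031 ± 1141), TPI1 (8539 ± 863) and PGK1 (7751 ± 759) followed. The dimmest were the transporter SLC2A1 (691 ± 221), hexokinase HK2 (635 ± 199) and PFKL (459 ± 60.8).

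All 19 measured genes of the tricarboxylic acid cycle were detected (median mean signal 1367), led by the malate dehydrogenases MDH2 (13259 ± 1459) and MDH1 (9544 ± 921) and citrate synthase (CS, 5949.9 ± 799). SUCLG1 (4199 ± 315) and the pyruvate dehydrogenase genes PDHB (2724 ± 294) and PDHA1 (2464 ± 364) followed, and pyruvate carboxylase (PC, 247 ± 27.2) was dimmest. In the pentose phosphate pathway 6 of 7 genes were detected: TALDO1 (4737 ± 221), TKT (4546 ± 553), PGD (2805 ± 255), PGLS (1404 ± 224), RPIA (934 ± 169) and RPE (815 ± 62.4). The transketolase-like gene TKTL1 (75) was at background.

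All 14 measured genes of serine, glycine and folate metabolism were detected (median mean signal 1130), beside 52.0% of all genes. PHGDH, the first enzyme of serine synthesis, gave 18494, 15295, 14336 and 13900.3. SHMT2, the mitochondrial enzyme that splits serine into glycine and a folate-bound carbon, gave 6267 ± 739. The cystathionine synthase gene CBS (3965 ± 861), the transaminase PSAT1 (4908, 3140.5, 2188 and 2399), the thymidylate synthase TYMS (2645 ± 178) and the mitochondrial folate enzyme MTHFD2 (3286, 2156, 1729.8 and 1720.2) followed. For PHGDH, PSAT1 and MTHFD2 scramble 1 was the highest array on raw signal, as for 77.7% of all detected genes. PSAT1 had a CV of 39.1%.

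Of 18 genes of amino acid uptake and glutamine use 16 were detected (88.9%, beside 52.0% of all genes). The asparagine synthetase gene ASNS was brightest at 4003 ± 2264, followed by the leucine transporter SLC7A5 (2918 ± 1039), the polyamine enzyme ODC1 (2541 ± 140.4), argininosuccinate synthetase (ASS1, 2479.7 ± 594), GOT1 (2070.5 ± 504) and GLUD1 (2042 ± 143). The cystine transporter SLC7A11 (78.2) was detected on 1 array and the glutamine synthetase GLUL (97) on 3. All 17 lipid and sterol synthesis genes were detected, led by the desaturase SCD (9328 ± 1453), the fatty acid synthase FASN (8566 ± 648) and the sterol enzymes SQLE (4809 ± 421) and HMGCS1 (3469 ± 207), then FADS1 (2673 ± 198) and ACLY (1673 ± 63.3). Of 11 liver and fasting genes 2 were detected (beside 52.0% of all genes), the urea cycle entry enzyme CPS1 at 874, 713, 768 and 640.4 and CYP2E1 (118 ± 12.7). PCK1 (101) was detected on 3 arrays, and G6PC1 (79), FBP1 (80.1) and OTC (73.3) on none.

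**Figure D4:**
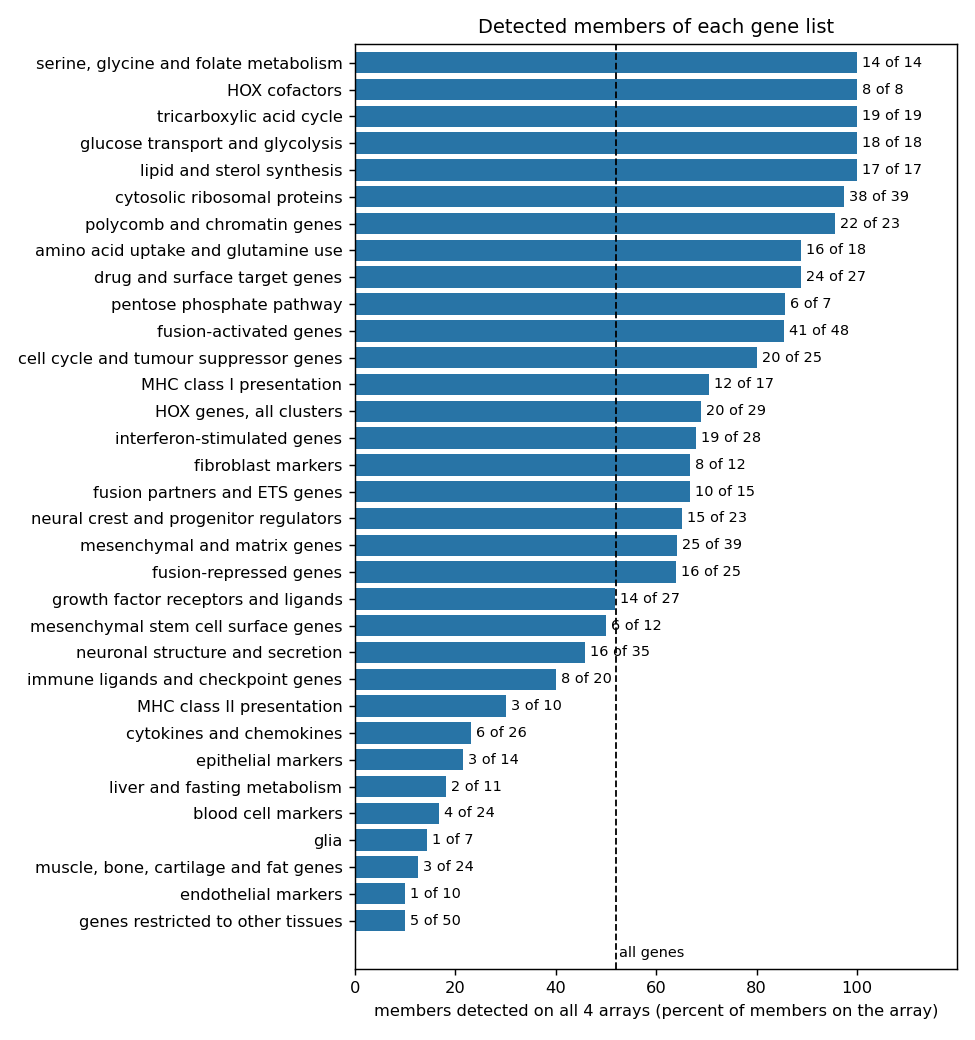
Share of the measured members of each gene list that were detected on all 4 scramble arrays (x axis, percent; 1 bar per list shown, with the counts printed), with a dashed line at the share over all genes (52.0%). All 14, 18, 19 and 17 measured members of the serine, glycolysis, tricarboxylic acid and lipid lists were detected, against 5 of 50 genes restricted to other tissues.

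Cell cycle genes beyond CCND1 were led by MYC (8583, 7119, 7136 and 6663) and the cyclin D partner kinase CDK4 (4618, 3537, 4243 and 4123), with 20 of 25 measured members detected (beside 52.0% of all genes). CCND3 (1342 ± 257) and the cohesin genes RAD21 (1225 ± 269) and SMC3 (1085 ± 153) came next. The cohesin gene STAG2, which is often mutated in Ewing sarcoma, gave 805 ± 145 and its paralogue STAG1 238 ± 21.7. The other STAG2 probes, at 87.8 and 69.8, were detected on no array. The tumour suppressor gene CDKN2A, often deleted in Ewing sarcoma lines, gave 66.5, 71.9, 79.6 and 68.3 on its brightest probe. All 3 of its probes, and all 3 probes of its neighbour CDKN2B (brightest 88.4), were detected on no array, while MTAP, the neighbour of CDKN2A on the other side, was detected at 200.1 ± 23.5. MDM2 (89.1) and CCND2 (92.3) were each detected on 1 array.

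Of 27 growth factor receptors and ligands 14 were detected (51.9%, close to the 52.0% of all genes). IGFBP2 (2306 ± 131), FGFR3 (1326 ± 143) and PDGFRB were brightest, followed by ERBB2 (384 ± 35), TGFBR2 and FGFR4 (332 ± 56.7). The single probe of IGF1R, a receptor much studied in this tumour, gave 96.2, 84.8, 79.7 and 88.3 and was detected on no array, as were those of INSR (78.2), EGFR (85.4), PDGFRA and IGF2 (73).

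Of 27 drug and surface target genes 24 were detected (88.9%, beside 52.0% of all genes). The ribonucleotide reductase gene RRM1 gave 4485 ± 529.9, and PARP1, the target of PARP inhibitors, 5207, 3919.7, 3954 and 3900.5. SLFN11, whose protein blocks stressed replication forks and sensitises cells to DNA-damaging drugs, gave 4034, 3557, 3324 and 3341. TOP2A (3109 ± 471), STEAP1 and the nuclear exporter gene XPO1 (2318 ± 495) followed. MGMT (1129 ± 132), which repairs alkylated guanine, was detected. ST8SIA1 (200.1 ± 12.2) and B4GALNT1 (124 ± 14.5), enzymes of GD2 ganglioside synthesis, and ROR1 (154 ± 8.64) gave low signals. The drug efflux pump gene ABCB1 (67.4) and the checkpoint kinase gene ATR (74.1) were detected on no array. Of 23 polycomb and chromatin genes 22 were detected (beside 52.0% of all genes), and the methyltransferase gene DNMT3A (77.9, 3 probes) was not. HDAC1 (6680.3 ± 363), DNMT1 (6578 ± 926), SMARCC1 (3335 ± 327), HDAC2 (3159 ± 394), SMARCA4 (3144 ± 546) and RING1 (2859.9 ± 240.0) were brightest.

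The title of the series names ARHGAP1, which switches off the GTPase CDC42, as a target of miR-130b, and of 14 measured genes of that pathway 10 were detected (71.4%, beside 52.0% of all genes). ARHGAP1 gave 597, 494, 493 and 482 and CDC42 749.6, 591, 664 and 773. RHOA (5971 ± 459.9), JUND (5485 ± 851), RAC1 (4039 ± 436), PAK2 (774 ± 79.3), PAK4 (632 ± 83), ATF3 (461 ± 208), JUN (434 ± 131) and JUNB (129.7 ± 9.7) were detected, and FOS (79.2) on no array.

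Among markers of other cell types, 3 of 14 epithelial genes were detected (beside 52.0% of all genes), MUC1 (154 ± 27.2), KRT8 (115 ± 9.74) and EPCAM, whose probe detected on all 4 arrays had a mean of 108. CDH1 (63.2), the epithelial cadherin, and KRT18 (79.7) were detected on no array. Of 10 endothelial markers 1 was detected (beside 52.0% of all genes), the tight junction gene CLDN5 (267 ± 37.2). PECAM1 (68.8), CDH5 (64) and VWF (65.5) were at background. Of 12 fibroblast markers 8 were detected (66.7%, beside 52.0% of all genes). PDGFRB, THY1, ACTA2, COL3A1, COL1A1 and DCN (319.7 ± 40.1) also belong to the mesenchymal lists, and S100A4 (1139.7 ± 96.6) and FAP (148 ± 10.8) do not. Of 50 genes restricted to other tissues, such as liver, pancreas, heart and skin, 5 were detected (beside 52.0% of all genes) and 38 on no array. The 5 were the keratin gene KRT10 (1376 ± 143), the hormone precursor gene POMC (896, 789, 723 and 775), HBA1 (129 ± 17.7), PMEL (114 ± 4.91) and ALB (113 ± 9.81). The last 3 lay close above the detection limit.

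At the top of the ranking, 43 of the 100 brightest genes carried RPL or RPS symbols, and those 100 genes held 15.5% of the summed gene signal. Of 39 measured members of a partial list of cytosolic ribosomal protein genes 38 were detected (median mean signal 17653). The brightest of the list were RPS12 (23915 ± 624), RPL38 (22404 ± 1183), RPL6 (21803 ± 1307), RPS6 (21756 ± 2635), RPL18 (21689.6 ± 1039) and RPS15 (21389 ± 1715). All 18 common reference genes were detected, from EEF1A1, ACTG1 and TUBA1B (19525 ± 1554) down to the dimmest, PPIA (335 ± 58). Apart from ribosomal protein symbols, the brightest were ATP5F1B (24261 ± 1779), a subunit of ATP synthase, the elongation factor gene EEF1A1 (24258 ± 1289), TPT1 (23389.7 ± 833), the ferritin light chain gene FTL (23198 ± 1184), the histone gene H4C3 (22811 ± 2139.7) and ENO1. TIMP1, ACTG1, NACA, OAZ1, PABPC1, TUBA1A, ORC6, TUBA3FP, EIF3E, TUBA1C, F2R, PPIAL4A, LAIR1 and ANXA2P2 completed the first 20, down to 19991.

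Some of these bright values rest on a single probe. LAIR1, an inhibitory receptor gene of blood cells, stood at 20238 on 1 probe and at 82.9 on the other, which was detected on no array. The thrombin receptor gene F2R read 20498 and 746, and the replication origin gene ORC6 20833 and 620.0. The 10 widest ratios between detected probes of a gene ran from 90.7 to 186 and belonged to TUBA3FP, TCAF1, XPNPEP3, RPL32, RPL41, CREB1, RPL37A, HSP90AA1, FAM177A1 and CLUAP1. PPIAL4A read 20402 and 3922, whereas PPIA, a gene of like name, read 335 on its only probe. ANXA2P2 rests on 1 probe. Whether any of these probes read the named gene or another of like sequence was not tested.

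The 4 arrays were alike but not equal. Over all 47322 probes the raw signals of array pairs correlated at 0.991 to 0.998 (Pearson's r, as a description; the points share probes and the pair scramble 3 and scramble 4 was closest). Over detected genes the median CV was 10.8% on raw signal and 7.32% after quantile normalization, which gives all arrays the same distribution. Scramble 1 was brighter as an array: its 75th percentile was 201 against 170.2 to 178, and 77.7% of detected genes had their highest raw signal there. After quantile normalization that share was 31.7%. Without scramble 1 the median raw CV was 6.51%. The genes of smallest raw CV were ELOF1 (801, 794, 813 and 798), FBXO22, RTN3, CLTA, CEP55, IMP3, CDK1 (2773, 2810.4, 2729.8 and 2784), NDUFA13, MRPL23 and HJURP, with CVs of 0.998% to 1.38%. After quantile normalization their CVs were larger, 8.05% to 10.3%, and scramble 1 was then the lowest array for all 10.

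The genes of largest raw spread had a common shape. Among the 5213 detected genes above the median signal, the 10 largest raw CVs all belonged to genes highest in scramble 1. That array was also the highest on raw signal for 83.6% of those 5213 genes. PCK2, the mitochondrial phosphoenolpyruvate carboxykinase gene, gave 1862, 715, 575 and 637 (CV 64.7%). ASNS, which makes asparagine and is known to be induced when amino acids run short, gave 7334, 3497, 2445 and 2736 (CV 56.6%). TRIB3, a stress-induced pseudokinase gene, gave 1788, 793, 769.7 and 702. In each of these 3 genes scramble 1 stood far above the other arrays. The NKG2D ligand gene ULBP1 gave 939.6, 505, 379 and 382 and the stress factor gene ATF3 772, 363, 355 and 354. The transcription factor genes ATF5 (1258, 530.1, 656 and 593) and CEBPG (2000.4, 1160.2, 839 and 925) also had scramble 1 far above the other 3. STC2, a secreted glycoprotein gene, the glucocorticoid-induced gene TSC22D3 and the RNA exosome gene EXOSC8 completed the 10, with CVs of 41.7%, 41.5% and 41.3%. All 10 stayed highest in scramble 1 after quantile normalization, with CVs of 29.2% to 52.3% beside the median of 7.32%. On that scale scramble 1 was the highest array for 34.0% of the 5213 genes. Over all detected genes 64 had a raw CV over 30%, and 59 of these were highest in scramble 1 (77.7% of all detected genes were). After quantile normalization 18 had a CV over 30%, 8 highest and 10 lowest in scramble 1.

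The amino acid, serine and glycolysis lists varied between the arrays. In amino acid uptake and glutamine use 9 of 16 detected genes were highest in scramble 1 after quantile normalization (31.7% of all detected genes were), and in serine, glycine and folate metabolism 10 of 14. SLC7A5 gave 4366, 2949.8, 2029 and 2329, SLC3A2, its partner chain, 1606, 1162, 897 and 985, and the glutamine transporter SLC1A5 1109.6, 648, 586 and 641. All 3 were highest in scramble 1 and lowest in scramble 3. In glucose transport and glycolysis 15 of 18 genes were highest in scramble 3 (18.5% of all detected genes were) with 12 of 18 highest there on raw signal (6.14% of all detected genes were), and 13 of 18 were lowest in scramble 1 (29.0% of all detected genes were). The list's median CV was 15.2% after quantile normalization beside 7.32% over all detected genes. SLC2A1, a glucose transporter gene, gave 457, 641, 990.3 and 674. HK2, which traps glucose in the cell, gave 460.2, 557, 919 and 605, and the aldolase gene ALDOC 1502, 1788, 2788 and 1742. All 3 were lowest in scramble 1 and highest in scramble 3, also on the raw scale on which scramble 1 was the brightest array. ENO1, the brightest gene of the list, had a CV of 1.67% after quantile normalization. On that scale the 20 brightest genes without RPL or RPS symbols had CVs from 0.778% (F2R) to 7.88% (ANXA2P2). SLC2A1, HK2 and ALDOC were among the 10 largest CVs of brighter genes after quantile normalization. So were PFKFB4, a regulator of glycolysis outside the lists (765, 1032, 1722 and 1057), and the antizyme gene OAZ2 (476 ± 133). After that normalization each of these genes was lowest in scramble 1. PFKFB4 was highest in scramble 3 and OAZ2 in scramble 4. Among the other metabolic lists, also after quantile normalization, 4 of 19 tricarboxylic acid cycle genes, 5 of 17 lipid genes and 2 of 6 pentose phosphate genes were highest in scramble 1, and 6, 7 and 0 in scramble 3. The ranking by quantile-normalized CV was added after the data had been seen.

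**Figure D5:**
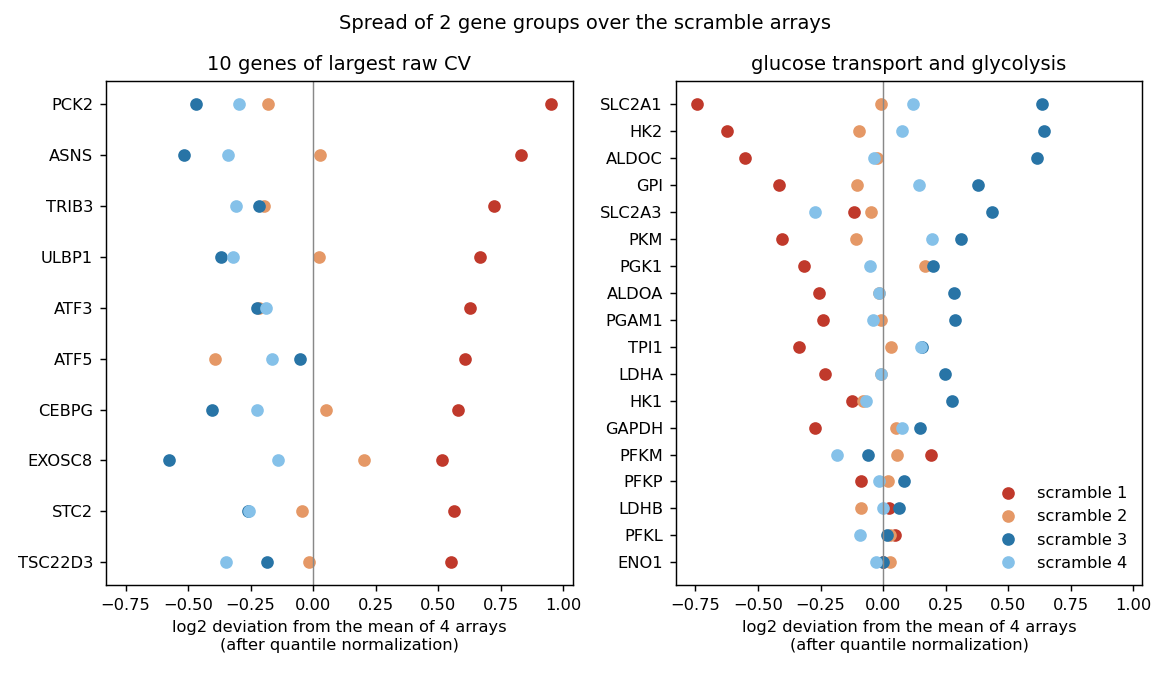
Deviation of each scramble array from the mean of the 4 arrays (x axis, log2 after quantile normalization; 1 point per array, coloured by array) for the 10 brighter detected genes of largest raw CV (left; rows, genes) and for the 18 genes of glucose transport and glycolysis (right). Scramble 1 lies to the right for all 10 genes on the left and, for 13 of 18 glycolysis genes, is the lowest array on the right.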

How the data were processed

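Total RNA of TC71 cells was extracted with Trizol, labelled as biotinylated cRNA and hybridised to Illumina bead arrays, per the labels' protocols. The deposited raw table gives, per the file headers, each probe's mean bead intensity with no normalization and, beside it, its detection p-value. The authors' normalized intensity table, whose method is not given in the sources used here, served as an alternative. Probes were named through the platform annotation: 30113 had 1 gene, 8 several and 17201 none, and 39 of the named probes did not match RefSeq by gene number. A gene took the value of its brightest probe. CVs were computed on raw intensity and after quantile normalization of the 4 arrays (limma 3.58.1 in R 4.3.3). The detection and spread steps were tested on simulated data (Python 3.11.15, pandas 2.3.3). The simulated background was drawn anew for each array, so false detection from probe background shared by the arrays was not tested. The number of arrays limits the precision, and depth has no counterpart here.

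The 39 gene lists held 773 symbols: 703 had a named probe, and 70 were not analysed here. Members and lists were chosen with earlier results of these data known, so counts and medians are descriptions without a test. Named were list members, the brightest first, then the 20 brightest genes without ribosomal symbols, the 10 largest and 10 smallest CVs among brighter detected genes and the 10 widest probe ratios. PFKFB4 and OAZ2 were chosen after their values were seen.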

Additional observations from a re-analysis of the deposited data

Results flagged for a closer look

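In 37 of 402 named genes 1 array stood far from the other 3, by the ratio of its gap to the range of the 4 raw signals. Chance gives such a result in about 1 gene in 20. Over all detected genes the share was 9.12% on raw signal and 5.4% after quantile normalization, and in 83.7% of the former scramble 1 was the array apart. Among the named genes scramble 1 was the array apart, and the highest, in 31. The raw signals of scramble 1 were ARHGAP1 (597), ASS1 (3365), ATF3 (772), CD3E (79.1), CXCL10 (229.8), ELF1 (999), ELK1 (2269.5) and F2R (22044). Further values of scramble 1 were GLI1 (186), HDAC2 (3743), HOXD11 (1087), HSP90AA1 (20118), ITGB1 (5253), JUN (631), KDSR (8304) and MDM2 (102). The list went on with NKX2-2 (2307), PARP1 (5207), PCK2 (1862), PDGFRB (1568), PDHB (3162), POU4F1 (839), PPIA (422) and RHOA (6655). The last were RPS6 (25663), S100A4 (1284), SLC1A5 (1109.6), SMC3 (1314), SYP (105), TOP2A (3814) and TRIB3 (1788). In the other 6 genes another array stood apart: ACTG1 (19852 in scramble 2), CALR (1704 in scramble 4), CD4 (70 in scramble 2), HOXB4 (153 in scramble 2), ST8SIA1 (182 in scramble 2) and TYROBP (71.7 in scramble 2). After quantile normalization 29 of the named genes met the same criterion.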

How the results depend on the processing

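The number of genes detected, 10426, became 9579 with a detection p under 0.01, 10985 with 3 arrays required, 10420 with the brightest probe only and 10516 to 10654 when each array was left out in turn. Counting probes in place of genes gave 17120. Among blood cell markers the count of 4 became 2 with the stricter p and 8 with 3 arrays required. The median CV of 10.8% was 9.87% after scaling to a common median, 7.32% after quantile normalization, 10.2% on the authors' normalized values and 14.9% after subtracting background. Leaving out each array gave 6.51% to 11.8%, the lowest without scramble 1. Of 747 genes of the lists and rules, ranks moved beyond the spread between arrays for 472 when all probes of a gene were averaged and for 12 with the median over arrays. For 0 genes did this occur with neqc or with the authors' values. The largest shift under averaged probes was 22.4 percentile points, for CD3D. No paired analysis was possible because only 1 group is described. Genes near background, such as FN1, HLA-C and CD79B, are at the limit of what these arrays resolve.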

Other observations

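Of 17209 probes without a single named gene, 3493 (20.3%) were detected on all 4 arrays, so part of the signal of the line lies outside the genes described. Among 6691 genes with several probes, all probes were detected in 1862, some in 2336 and none in 2493. The brightest probe was not the detected one in 6 genes called detected.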
